A study of Mus musculus with 24 samples.

Results

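Macrophages of WT mice that had been driven into the M1-like state were compared directly with WT macrophages driven into the M2-like state. The comparison used the raw gene counts of 8 of the 24 libraries of the study, 4 WT M1 and 4 WT M2, and every gene with enough counts in them, which was 2129 of the 24557 genes in the table. The cells were bone marrow-derived macrophages (BMDMs), grown from marrow of WT littermates of Ltb4r2-/- mice for 7 days with 10 ng/ml M-CSF, the growth factor that turns marrow precursors into macrophages. M1 cells then received 10 ng/ml lipopolysaccharide (LPS) together with 25 ng/ml IFN-γ, and M2 cells got IL-4 at 10 ng/ml, and both were harvested after 16 h. The M0 cells of the same genotype, which got neither, are given below only for orientation. The same contrast in 4 M1 and 4 M2 libraries of Ltb4r2-/- mice, which lack the gene for the leukotriene receptor BLT2 in every tissue, gives another set of samples. The labels number the libraries as biological replicates and give neither sex nor age, and each library is bulk RNA of a culture, so fewer cells of a type and less RNA per cell cannot be told apart.

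LPS is recognised by TLR4, which sends signals through NF-κB and through interferon regulatory factors, so that the cell makes cytokines, chemokines and type I interferon. Interferons act through JAK kinases on transcription factors that bind short palindromes called GAS sites or the interferon-stimulated response element (ISRE). Together these signals turn on nitric oxide and itaconate production, antigen presentation and antiviral defence. IL-4 acts through STAT6 instead, which binds a palindrome with a slightly wider spacing, and turns on arginase, chitinase-like proteins and lectin receptors.

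Total counts per library were low, and a feature of the counts touches every gene named here. A WT M1 library held 514359 to 729580 counts (median 594857) and a WT M2 library 439365 to 543423 (median 483576), so that 3 counts, the limit that a count of 0 allows, equal 5.31 to 7.62 CPM (counts scaled to the size of the library) in M1 and 4.78 to 6.12 CPM in M2. Genes with an exon that overlaps an exon of a gene on the opposite strand made up 24.03% of the genes in the table, yet they held 90.9% to 91.5% of the counts in M1 and 89.1% to 90.3% in M2. The library kit keeps the strand, but whether the counting used it is not given in the sources used here. Counts under a symbol with such a partner may therefore be reads of that partner, so a partner is named beside most such genes, and its part in the result was not tested. Genes with no such overlap held 7.43% to 7.91% of the counts in M1 and 8.34% to 9.53% in M2. Some of them, such as Cxcl9, Nos2, Arg1, Fth1, B2m, Sqle, Ptgir and Parp2, still have a protein-coding gene on the other strand within 5000 bases. The part of such neighbours was not tested either. By raw counts WT M2 replicate 3 stood apart from the other M2 libraries, with a chi-square per degree of freedom of 8.52 to 12.1. The chi-square was 3.14 to 4.23 among the other 3 and 2.39 to 6.77 among M1 libraries. By distance in log2 CPM over all genes tested this library did not stand apart. Its mean distance to the other M2 libraries was 32.7, against 31.9 to 32.7 for each of those. Of 24 macrophage identity genes, 14 averaged at least 10 counts in M1 and 13 did in M2, with summed levels of 1420 to 1980 CPM in M1 and 1010 to 1730 CPM in M2. No gene on the lists for stromal, erythroid, mast, neutrophil, B, or T and NK cells reached that mean in either state. The dendritic cell list reached 488 to 824 CPM in M1, where Xcr1 alone averaged at least 10 counts, and 97.3 to 143 CPM in M2, where Clec9a and Xcr1 did.

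The 2 states differed across most of the genes that could be measured. By edgeR's quasi-likelihood test, 1296 of 2129 genes (60.9%) passed an adjusted p of 0.05, of which 667 were higher in M1 (31.3%) and 629 were lower (29.5%). All 4 M1 libraries lay above or below all 4 M2 libraries for 1188 genes (55.8%), and for such a gene the exact two-sided permutation test gives 0.0286, the smallest p that 4 against 4 allows. Genes higher in M1 had a median change of 2.81-fold, with 256 of them at least 4-fold and 91 at least 16-fold. Genes lower in M1 had a median change of 2.51-fold, with 157 at least 4-fold and 48 at least 16-fold. Without WT M2 replicate 3 the count was 1341, with 703 higher and 638 lower. Scaling by total counts alone, in place of the trimmed mean, moved the median of all genes to -0.54 on the log2 scale, against 0.02, and turned the split into 403 higher and 1036 lower, so that small differences in either direction depend on the scaling.

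**Figure D1:**
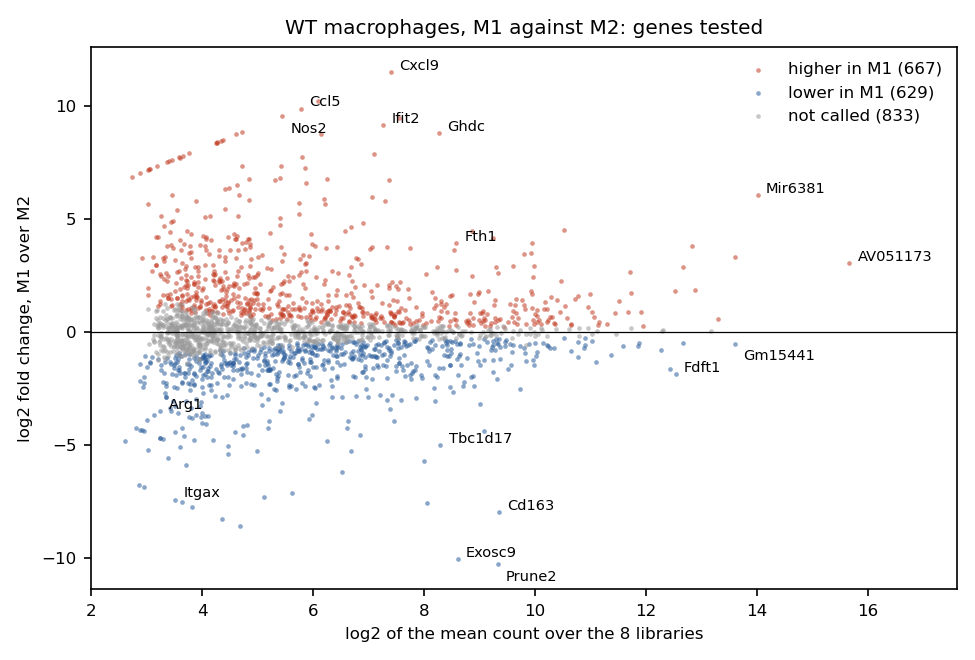
Each point is 1 of the 2129 genes tested in WT macrophages, by the log2 of its mean count over the 8 libraries and its log2 fold change of M1 over M2 from edgeR. The 667 genes higher in M1 are red, the 629 lower in M1 blue and the others grey, and the straight rows of points at the upper and lower left are genes with 0 counts in all 4 libraries of a state.

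Several chemokines and enzymes that define the M1 state were counted in M1 and at 0 counts in every M2 library. Cxcl9, an IFN-γ-induced chemokine for T cells (chr5:92321347-92328079, minus strand, no exon overlap), had 266, 455, 272 and 357 counts in the M1 libraries, or 563, 805, 691 and 851 CPM, against 0 counts in every M2 and every M0 library. Against a floor of 3 counts over the M2 group this was at least 532-fold higher in M1. Ccl5, a chemokine for T cells and monocytes that likewise lies free of exons on the other strand, had 103, 152, 65 and 119 counts in M1 and 0 in all M2 libraries, at least 173-fold higher. Nos2 encodes inducible nitric oxide synthase (iNOS), the marker by which the study recognised M1 cells. It had 88, 119, 59 and 82 counts in M1 and 0 in all M2 libraries, at least 137-fold higher. Ptgs2, which makes prostaglandins and is also called COX-2, was at least 82.8-fold higher in M1, and Cxcl10, whose partner Art3 had 0 counts throughout, at least 61.1-fold. Of 19 M1 markers listed 7 passed the filter on low counts and were called higher in M1, where 31.3% of all genes tested were higher and 60.9% were called. The median log2 fold change of these 7 was 8.39, or 5.93 with genes at 0 put at their bound, against 0.02 over all genes. As 6 of the 7 averaged under 10 counts in M2 and so passed the filter through M1, where they are high, their count and median are a description only, and the same holds for the members of the lists below that averaged under 10 counts in a state. Under total-count scaling 6 of them were higher and Irf5, with Tnpo3 on the other strand, was lower.

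Acod1, which makes itaconate from an intermediate of the citric acid cycle, followed the same pattern. It had 254, 251, 226 and 264 CPM in M1 and 1.73, 4.06, 0 and 0 CPM in M2, where the value rests on 3 counts in all, a ratio of 182-fold (95% counting interval 61.9 to 887). All 4 M1 libraries stood far above the M2 and M0 libraries. Cxcl16, a membrane-bound chemokine with Zmynd15 on the other strand, had 343, 304, 305 and 322 CPM in M1 and 55.2, 66.998, 36.7 and 48.9 CPM in M2 (log2 fold change 2.62 ± 0.18, SE, adjusted p = 2.9e-09). Of 6 chemokine ligands tested, 3 averaged under 10 counts in M2 and 1 in M1. Of these 6, 4 were higher in M1, against 31.3% of all genes tested. Ccl9 was lower, by a ratio of 25.4-fold (95% counting interval 6.72 to 214). Ccl3 did not pass the test (0.06). Xcr1, the receptor that marks cross-presenting dendritic cells, was the chemokine receptor that had enough counts, with 800.4, 476, 676 and 655 CPM in M1 and 51.8, 48.7, 41.5 and 46.9 CPM in M2 (3.78 ± 0.18). Fyco1, its neighbour on the same strand, was higher in M1 too (3.43 ± 0.31). Clec9a, the other marker of those cells, went the other way, with 2 counts in M1 and 95 in M2. The M1 and M2 libraries overlapped in neither gene, as in 55.8% of all genes tested.

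Most genes of the interferon response that passed the filter were higher in M1, against 31.3% of all genes tested. Of 38 antiviral genes listed 10 were tested and 9 were higher in M1, of 19 interferon-inducible GTPases 10 and 10, of 33 pattern recognition genes 5 and 5, and of 34 antigen presentation genes 14 and 13. Those that averaged under 10 counts in M2 were 8, 10, 4 and 5 of the members tested. The median log2 fold changes were 5.61, 6.77, 4.86 and 2.60 (5.29, 5.32, 4.86 and 2.60 with genes at 0 put at their bound). Under total-count scaling the numbers higher were 9, 10, 5 and 11, and 1 antigen presentation gene was lower. Ifit2, which binds viral RNA, had 1019, 504, 521 and 603 CPM in M1 and 0, 4.06, 0 and 0 CPM in M2, the M2 value coming from 2 counts, a ratio of 724-fold (95% counting interval 200 to 5980). Rsad2, or viperin, an enzyme that makes a chain-terminating nucleotide, had 277, 147, 262 and 303 CPM in M1 and 0, 0, 0 and 4.08 CPM in M2 (263-fold (95% counting interval 72.3 to 2180)). M1 replicate 1 was highest for Ifit2, and M1 replicate 2 was lowest for both genes. Ifi35, with Gm11626 on the other strand, was the antiviral gene that was lower in M1, at -2.11.

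The guanylate-binding proteins attack the vacuoles of intracellular pathogens. Gbp5 had 163, 211, 145 and 198 CPM in M1 and 0, 4.06, 1.59 and 0 CPM in M2 (132-fold (95% counting interval 44.9 to 646)), and Gbp7 had 246, 198, 241 and 224 CPM in M1 and 8.63, 0, 12.8 and 0 CPM in M2 (log2 fold change 5.21 ± 0.41). Gbp4 had 0 counts in M2 and was at least 65.8-fold higher in M1. Igtp, Iigp1 and Gbp6, of the same or the related immunity-related GTPase family, had 0 counts in M2 too and were at least 32.7-fold, 63.9-fold and 38.2-fold higher in M1. Tgtp2 had 2 counts in M2 (53.8-fold (95% counting interval 14.5 to 451)). None of these has an exon opposite another gene in the annotation.

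Promoters were read for 9 named genes, picked by hand among those with no exon opposite another gene and with a window in RefSeq. Ccl5, Nos2 and Arg1 were picked too but had no window, and other named genes were not read singly. The aim was to look for the sites that the signals named above are known to use. The 5 printed here were picked because they hold a match, after the matches were seen. Those of Acod1, which was higher in M1, and of Prune2 and Cd163, which were lower, held none of the 4 motifs. That of Ifit2, which was higher in M1, held no ISRE core but a GAS site and an overlapping κB motif, and a second window of the same gene held a STAT6-type site. The sequences are the 250 bases before the transcription start in RefSeq (GRCm38.p6), 5′ to 3′ on the strand of the gene. Capitals mark matches, on either strand, to the ISRE core GAAANNGAA, to a GAS site (TTC and GAA 3 bases apart), to the STAT6-type site (TTC and GAA 4 bases apart) or to the κB motif of NF-κB. Cxcl9 is at chr5:92328080-92328329 on the minus strand, Gbp5 at chr3:142496684-142496933 on the plus strand and Rsad2 at chr12:26456453-26456702 on the minus strand, and all 3 genes were higher in M1. Chil3 is at chr3:106167565-106167814 and Clec7a at chr6:129472780-129473029, both on the minus strand, and both were lower in M1.
Cxcl9: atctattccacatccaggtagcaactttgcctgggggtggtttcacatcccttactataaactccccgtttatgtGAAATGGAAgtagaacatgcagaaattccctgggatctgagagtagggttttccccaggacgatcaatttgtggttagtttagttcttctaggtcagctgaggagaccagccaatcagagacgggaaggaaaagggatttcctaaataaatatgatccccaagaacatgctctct
Gbp5: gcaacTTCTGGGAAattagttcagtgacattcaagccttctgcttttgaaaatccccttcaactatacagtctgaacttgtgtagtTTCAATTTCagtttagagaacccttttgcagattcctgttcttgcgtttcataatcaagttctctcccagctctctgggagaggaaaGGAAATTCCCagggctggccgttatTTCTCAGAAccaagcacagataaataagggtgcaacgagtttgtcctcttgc
Rsad2: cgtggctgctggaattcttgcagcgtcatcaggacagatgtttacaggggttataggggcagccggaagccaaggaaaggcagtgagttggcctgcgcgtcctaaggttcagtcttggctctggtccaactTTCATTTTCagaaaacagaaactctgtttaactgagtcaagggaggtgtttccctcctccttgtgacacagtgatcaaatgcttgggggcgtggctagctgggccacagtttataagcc
Chil3: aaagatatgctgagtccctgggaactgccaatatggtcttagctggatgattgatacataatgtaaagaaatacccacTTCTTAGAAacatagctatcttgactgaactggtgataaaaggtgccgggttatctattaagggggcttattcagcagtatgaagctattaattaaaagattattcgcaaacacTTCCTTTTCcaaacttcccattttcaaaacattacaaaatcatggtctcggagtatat
Clec7a: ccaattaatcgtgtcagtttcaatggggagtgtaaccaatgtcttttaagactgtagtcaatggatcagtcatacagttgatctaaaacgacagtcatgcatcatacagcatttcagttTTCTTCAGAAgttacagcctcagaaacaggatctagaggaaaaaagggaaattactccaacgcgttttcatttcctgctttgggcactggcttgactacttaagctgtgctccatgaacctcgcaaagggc
The capitals are an ISRE core 175 to 167 bases before the start in Cxcl9, and in Gbp5 a GAS site at 245 to 237, an ISRE core at 164 to 156, a κB motif at 77 to 68 and a second GAS site at 52 to 44. Rsad2 has an ISRE core at 119 to 111. Chil3 has a GAS site at 172 to 164 and an ISRE core at 58 to 50, so that these letters also occur upstream of a gene that was lower in M1. Clec7a has a STAT6-type site at 131 to 122. A match describes the letters and is not evidence that a factor binds there.

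Among called genes with no exon overlap, 184 of the 239 higher in M1 had 227 promoter windows in RefSeq, each from 250 bases before to 50 bases after the start, and 116 of the 150 lower in M1 had 144. The ISRE core was in 16.3% of windows of genes higher in M1, in 8.33% of those lower in M1 and in 8.56% of all 32851 windows. The κB motif was in 13.7%, 11.1% and 8.46% of them in the same order, the GAS site in 7.93%, 4.86% and 8.30%, and the STAT6-type site in 4.41%, 4.86% and 6.95%. Genes with an overlapping partner had the ISRE core in 8.17% of windows where they were higher in M1 and in 6.72% where they were lower.

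Most, but not all, of the transcription factors tested were higher in M1. Of 41 STAT, IRF and other activation factors listed 15 were tested, 10 of which averaged under 10 counts in M2. Of these 15, 12 were higher in M1 (31.3% over all genes), Stat6 was lower and the rest did not pass, with a median of 2.55, and under total-count scaling 10 were higher and 2 lower. Hif1a, with Gm15283 on the other strand, had 82.6, 79.6, 122 and 85.8 CPM in M1 and 0, 0, 3.19 and 0 CPM in M2, where it rests on 2 counts (99.4-fold (95% counting interval 27.1 to 827)). Stat2 (log2 fold change 3.28), Cebpb (2.90, with Tmem189 on the other strand) and Irf1 (1.41, with Gm17334) were also higher. Stat6, the transducer of IL-4 signals, was lower in M1 at -1.02, while Nab2 on its other strand (which also has Gm16229 opposite it) was higher at 0.58.

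Tlr1, a partner of TLR2 in sensing bacterial lipoproteins, had 191, 109.7, 231 and 231 CPM in M1 and 0, 0, 0 and 4.08 CPM in M2 (201-fold (95% counting interval 55.2 to 1670)). Clec4e, the Mincle receptor for mycobacterial glycolipids, had 0 counts in M2 and was at least 39.8-fold higher in M1. Of the NF-κB list only Sod2, Nfkb2 (opposite AC114539.1) and Icam1 (opposite Gm47079) had enough counts, and 2 of these averaged under 10 counts in M2. All 3 were higher in M1, against 31.3% of all genes tested, and this count is a description only. Sod2, the mitochondrial superoxide dismutase and a classical NF-κB target, had 61.4, 56.6, 76.2 and 102 CPM in M1 and 8.63, 4.06, 3.19 and 0 CPM in M2 (4.09 ± 0.50).

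Genes of class I antigen presentation that were tested were all higher in M1, where 31.3% of all genes tested were higher. They belong to the list of 14 tested antigen presentation genes given above. Of these 14, 5 averaged under 10 counts in M2, and under total-count scaling 11 were higher and 1 lower. B2m, the light chain of every class I molecule, had 237, 249, 190.5 and 259.7 CPM in M1 and 31.1, 66.998, 30.3 and 46.9 CPM in M2 (2.44 ± 0.24, adjusted p = 1.75e-07). Its groups did not overlap, as in 55.8% of all genes tested. The heavy chain genes H2-K1 (2.66), H2-D1 (2.71), H2-T23 (4.12) and H2-Q4 (3.73, with Gm11131 on the other strand) were higher by similar or larger amounts. Tap1, the peptide transporter, overlaps Psmb9 on the other strand, which encodes a subunit of the immunoproteasome. Tap1 had 695, 621, 767 and 772 CPM in M1 and 12.1, 4.06, 4.78 and 4.08 CPM in M2 (6.75 ± 0.22), and Psmb9 133, 91.99, 93.98 and 83.4 CPM in M1 and 20.7, 32.5, 35.1 and 34.7 CPM in M2 (1.71 ± 0.27), so both genes of the pair were higher. The class II genes H2-Ab1 (2.09) and Cd74 (0.79) were higher as well. Cd274, the gene of the inhibitory ligand PD-L1 with AC119228.1 on the other strand, had 227, 221, 196 and 262 CPM in M1 and 6.90, 6.09, 3.19 and 0 CPM in M2 (5.70 ± 0.35).

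Genes of glycolysis, of redox defence and of iron storage were next, and 31.3% of all genes tested were higher in M1 and 60.9% called. Of 10 glycolysis genes tested, 3 of which averaged under 10 counts in M2, 7 were higher in M1 and Pfkp, opposite Pitrm1, was lower, with a median of 1.44, and 5 were higher under total-count scaling. Pkm, the last enzyme of the pathway, had 176, 189, 142 and 141 CPM in M1 and 37.97, 30.5, 23.9 and 42.8 CPM in M2 (2.27 ± 0.24), and Ldha, which makes lactate, was higher at 1.55. Of 10 genes of oxidative stress and metals, 4 of which averaged under 10 counts in M2, 8 were higher in M1, with a median of 2.85 (7 higher and 1 lower under total-count scaling). Fth1, the heavy chain of the iron store ferritin, had 1326, 1699.97, 1239.5 and 1811 CPM in M1 and 75.9, 118, 89.3 and 110.1 CPM in M2 (3.96 ± 0.17). Prdx1, a peroxide-scavenging enzyme with AV051173 and its far larger count on the other strand, had 506, 557, 432 and 541 CPM in M1 and 37.97, 60.9, 22.3 and 40.8 CPM in M2 (3.68 ± 0.21), and Hmox1, which breaks down haem, 80.5, 179, 147 and 114 CPM in M1 and 17.3, 12.2, 6.38 and 12.2 CPM in M2 (3.43 ± 0.35). In Pkm, Fth1, Prdx1 and Hmox1 every M1 library was above every M2 library, as was so for 28.6% of all genes tested.

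Other genes with large increases in M1 included several that belong to none of the lists. Gm4841, with no exon overlap, had 347, 221, 333 and 295 CPM in M1 and 0 counts in every M2 library, at least 214-fold higher. Ghdc, which neighbours Stat5b, had 1338, 1198, 1481 and 1351 CPM in M1 and 0, 0, 6.38 and 4.08 CPM in M2 (8.81 ± 0.29), and Stat5b, one of the activation factors counted above, had 136, 90.2, 102 and 129 CPM in M1 and 1.73, 0, 0 and 0 CPM in M2 (247-fold (95% counting interval 43.9 to 9810)). Rnf219, a ubiquitin ligase, had 603, 517, 605 and 653 CPM in M1 and 0, 0, 6.38 and 2.04 CPM in M2 (7.88 ± 0.32). Med7, a subunit of the Mediator complex with 2310031A07Rik on the other strand, had 1079.9, 492, 978 and 765 CPM in M1 against 2 counts in M2 (884-fold (95% counting interval 244 to 7300)). Bcl2l14, of the BCL2 family and opposite 4933406J09Rik, had 241, 334, 254 and 381 CPM in M1 against 1 count in M2 (666-fold (95% counting interval 119 to 26300)). M1 replicate 2 was the lowest of the M1 libraries for Gm4841, Med7, Ghdc and Rnf219. Of the 12 largest increases in M1 among genes with a mean of at least 50 counts, 4 had an overlapping partner, against 1453 of the 2129 genes tested.

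Of 29 IL-4 markers listed 6 were tested, 4 of which averaged under 10 counts in M1 and 2 in M2. Arg1, Chil3 and Clec7a, 3 of the 6, were lower in M1. Over all genes tested 29.5% were lower, 31.3% higher and 60.9% called. Arg1, the arginase that competes with iNOS for arginine, had 4.24, 3.54, 0 and 2.38 CPM in M1 and 39.7, 44.7, 27.1 and 18.4 CPM in M2 (log2 fold change -3.48 ± 0.58, adjusted p = 5.95e-05). Chil3, the chitinase-like protein Ym1, had 0 counts in every M1 library and 20, 12, 20 and 10 counts in M2, at least 17.5-fold lower in M1. Clec7a, the fungal receptor dectin-1, had 0, 7.08, 0 and 0 CPM in M1 and 20.7, 44.7, 44.6 and 67.3 CPM in M2 (-4.22 ± 0.72). The groups did not overlap in these 3 genes, as in 55.8% of all genes tested. The M2 values of these 3 genes lay above those of M0. The M0 libraries had 3.14, 5.44, 9.09 and 3.87 CPM of Arg1, 0 counts of Chil3 and 3.14, 12.7, 9.09 and 3.87 CPM of Clec7a. Of all 6 tested 2 were higher in M1, Ch25h and Tgm2, and Matk did not pass, with a median of -2.12, and under total-count scaling 4 were lower. Ch25h, which makes an antiviral oxysterol, had 46.6, 30.1, 55.9 and 59.6 CPM in M1 and 3.45, 0, 1.59 and 0 CPM in M2 with Gm26902 on the other strand, and Tgm2, a transglutaminase opposite Gm20412, 48.7, 77.8, 91.4 and 112 CPM in M1 and 6.90, 16.2, 6.38 and 8.16 CPM in M2. Mrc1 encodes CD206, the surface marker by which the study recognised M2 cells. It fell short of the filter, with 0 counts in every M1 library and 13, 6, 15 and 10 counts in M2.

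Some of the largest decreases in M1 were in genes that M0 cells already held. Cd163, the receptor that clears haemoglobin, had 8.47, 8.84, 10.2 and 9.53 CPM in M1 and 1866, 2009.9, 3278 and 2213 CPM in M2 (-7.95 ± 0.25, adjusted p = 2.19e-13), with 2484, 2653, 2330.1 and 2435 CPM in M0. Prune2 (chr19:16956118-17223932, plus strand), a large protein with a BNIP2 and Cdc42GAP homology domain, had 2.12, 3.54, 0 and 0 CPM in M1, which is 3 counts, 1860.5, 1921, 2953 and 2537 CPM in M2 and 1621, 1637, 1292 and 1922 CPM in M0, and was lower in M1 by a ratio of 1440-fold (95% counting interval 493 to 7000). The M2 and M0 libraries overlapped in both genes, with the M1 libraries far below, and M2 replicate 3 was the highest of the M2 libraries. Of 9 scavenger receptors tested, 4 of which averaged under 10 counts in M1 and 3 in M2, 4 were higher in M1 and 2 lower (3 and 3 under total-count scaling). Over all genes tested 31.3% were higher and 29.5% lower. Marco, a receptor for bacteria, had 35.998, 56.6, 129.5 and 38.1 CPM in M1 and 3.45, 0, 0 and 0 CPM in M2 (68.6-fold (95% counting interval 18.6 to 573)), with M1 replicate 3 far above the other 3. Stab1, with Nt5dc2 on the other strand, had 1467, 1767, 1643 and 1765 CPM in M1 and 259, 270.02, 356 and 309.99 CPM in M2 (2.48 ± 0.13).

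Single genes for an integrin, a protease and lipid enzymes were also lower in M1. Itgax, the CD11c integrin, and Atp6v0d2, a subunit of the lysosomal proton pump, had 0 counts in every M1 library against 22, 33, 24 and 12 and 18, 14, 13 and 13 counts in M2, at least 25.6-fold and 16.3-fold lower in M1. Mmp12, the macrophage elastase, had 0, 3.54, 0 and 4.76 CPM in M1 and 107, 104, 39.9 and 71.4 CPM in M2 (-5.06 ± 0.60, with Mmp1b on the other strand, at 0 counts in M1 and 13 in M2). Lpl, which frees fatty acids from lipoproteins, had 52.9, 22.996, 43.2 and 50.03 CPM in M1 and 400.4, 378, 144 and 302 CPM in M2 (-2.86 ± 0.32), and M2 replicate 3 was the lowest M2 library for Mmp12 and Lpl. Sqle, an enzyme of cholesterol synthesis, had 88.9, 111, 96.5 and 105 CPM in M1 and 361, 319, 354 and 357 CPM in M2 (-1.78 ± 0.15), while Mvd of the same pathway was higher in M1 (2.14 ± 0.27). Of 31 cholesterol and fatty acid synthesis genes listed 4 were tested and 3 were lower in M1, with a median of -1.52. Over all genes tested 29.5% were lower and 60.9% called. Of the 2 with no exon overlap 1 was higher and 1 lower, so the count is not read as a result about this list. Ptgir, the prostacyclin receptor, had 116, 124, 132 and 138 CPM in M1 and 435, 333, 381 and 379 CPM in M2 (-1.58 ± 0.14).

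**Figure D2:**
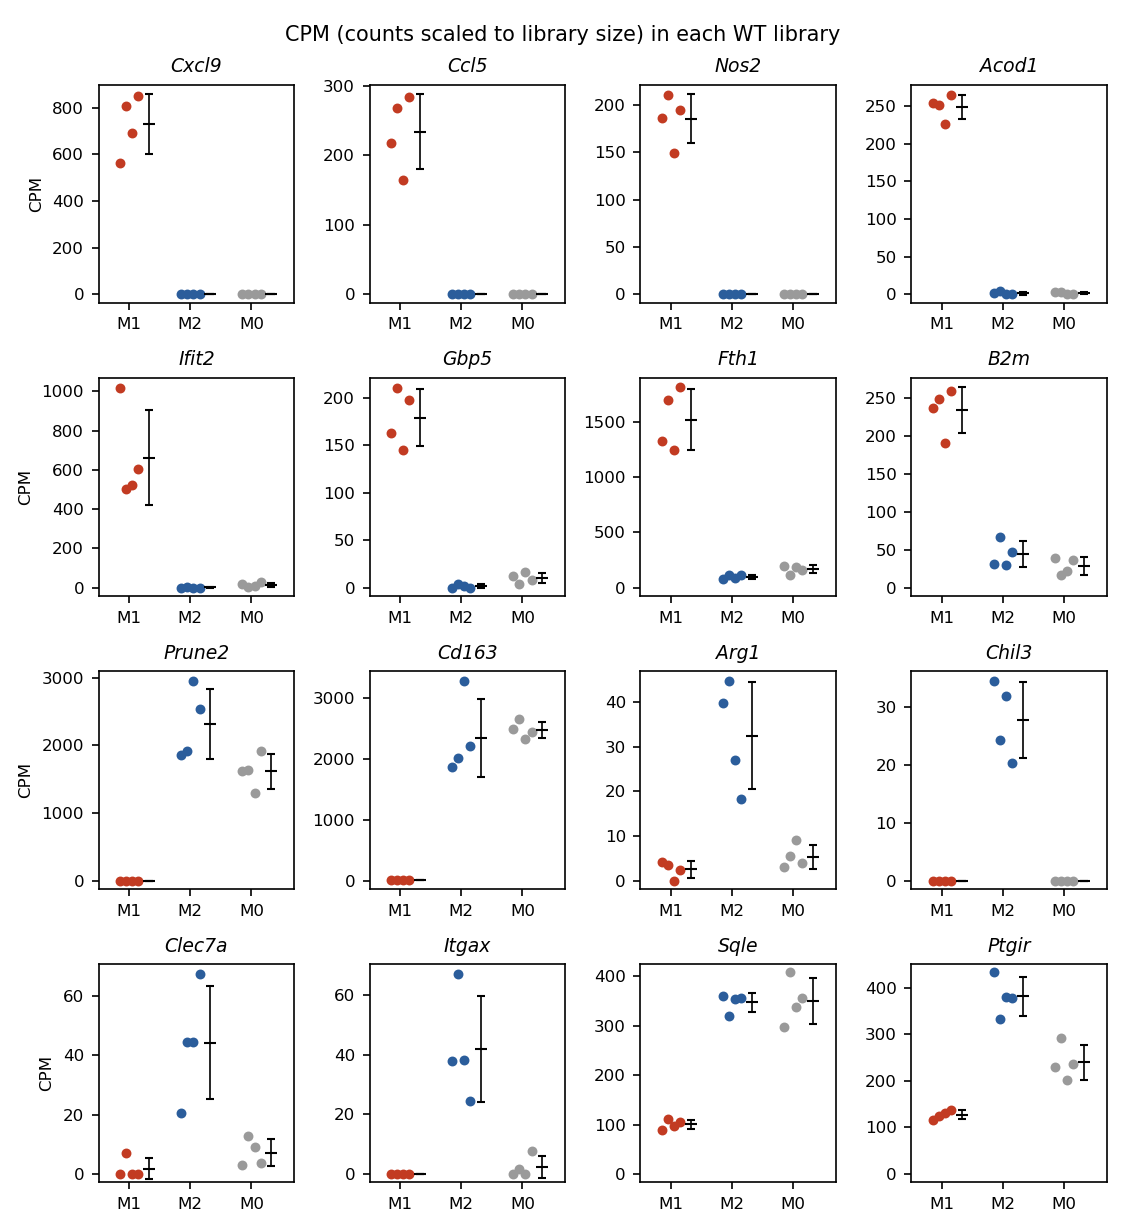
Each panel plots the CPM of 1 gene with no opposite-strand exon overlap in the 4 M1 (red), 4 M2 (blue) and 4 M0 (grey) WT libraries on a linear axis, and the bar beside each group is its mean ± SD. Cxcl9, Ccl5 and Nos2 are at 0 in all M2 and M0 libraries, Prune2 and Cd163 are near 0 in M1 but not in M0, and Arg1 and Chil3 stand above the other groups in M2.

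Cell cycle and ribosomal protein genes had calls in both directions. Mki67, a protein of dividing cells, had 4.24, 1.77, 0 and 9.53 CPM in M1 and 53.5, 66.998, 38.3 and 46.9 CPM in M2 (-3.67 ± 0.54), and Tk1, an enzyme of DNA synthesis opposite Afmid, 127, 149, 173 and 145 CPM in M1 and 329.6, 341, 297 and 212 CPM in M2 (-0.99 ± 0.17). Cdkn1a, the p21 inhibitor of cell division with AC167363.2 on the other strand, was higher in M1 at 2.16, and Ccnd1, opposite LTO1, at 0.69 was higher but lost its call under total-count scaling. Of 9 cell cycle genes tested, 3 of which averaged under 10 counts in M1 and 1 in M2, 4 were lower and 2 higher, with a median of -0.61. Under total-count scaling 7 were lower. Of 16 ribosomal protein genes tested, 11 averaged under 10 counts in M1 and 1 did in M2. Of these 16, 6 were lower in M1, Rps9 was higher and 9 did not pass, with a median of -0.90 (11 lower and 0 higher under total-count scaling). Over all genes tested 60.9% were called and 29.5% were lower, so that neither the calls nor the medians are read as a result about these lists. Rpl5, with Fam69a on the other strand, had 244, 249, 236 and 200.1 CPM in M1 and 437, 410.1, 413 and 414 CPM in M2 (-0.84 ± 0.12).

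Other lists had calls in both directions, and beside each stand the 31.3% of all genes tested that were higher in M1 and the 29.5% that were lower. Among 19 lysosomal genes 6 were higher in M1, 5 lower and 8 did not pass, with a median of 0.05, and under total-count scaling 3 were higher and 9 lower. Ctsc, a cathepsin that activates granule proteases, had 267, 241, 170.2 and 331 CPM in M1 and 18.98, 20.3, 12.8 and 16.3 CPM in M2 (3.88 ± 0.27), while Gusb (-3.07 ± 0.58) was lower. Among 29 actin, adhesion and migration genes 7 were higher in M1, 4 lower and 18 did not pass, with a median of 0.36 (5 higher and 6 lower under total-count scaling). Itga5, the fibronectin receptor, was higher at 3.15, and Tmsb10, which binds actin monomers, had 82.6, 189, 145 and 162 CPM in M1 and 51.8, 22.3, 17.5 and 40.8 CPM in M2 (2.13 ± 0.33). Among 15 DNA repair genes 6 were higher in M1 and 7 lower, with a median of -0.22 (4 and 9 under total-count scaling), and 14 of the 15 have an overlapping partner. Parp2, which has none, was lower in M1 with 2 counts in M1 and 74 in M2, whereas Parp9 (opposite Dtx3l) and Parp14 of the interferon-linked PARP genes were higher at 2.92 and 4.13.

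**Figure D3:**
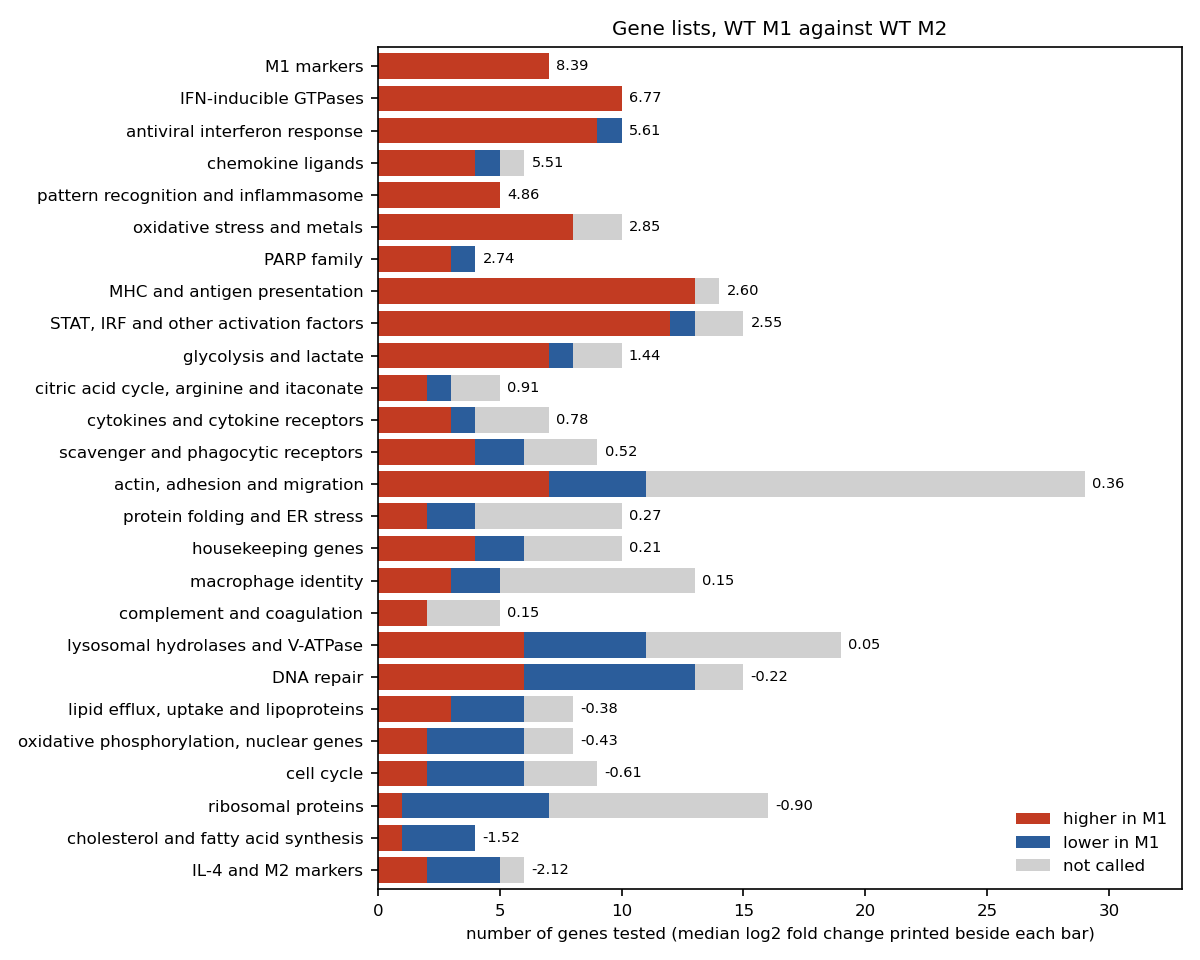
Each bar is 1 gene list with at least 4 genes tested, split into the number of genes higher in M1 (red), lower in M1 (blue) and not called (grey) by edgeR's test, with the list's median log2 fold change of M1 over M2 printed at its end. M1 markers, interferon-inducible GTPases and pattern recognition genes are all red, and the lists at the bottom, from ribosomal proteins to IL-4 markers, hold more blue than red.

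RNA of genes whose proteins the study stained was counted as well, F4/80 and CD11b in flow cytometry of these cells and Mac2 in liver sections. Adgre1, the gene of F4/80, had 123, 124, 91.4 and 112 CPM in M1 and 15.5, 24.4, 17.5 and 20.4 CPM in M2 (2.54 ± 0.27, adjusted p = 4.85e-07). Itgam, the gene of CD11b, had 71.995, 79.6, 73.7 and 71.5 CPM in M1 and 51.8, 30.5, 46.2 and 44.9 CPM in M2 (0.77 ± 0.26, adjusted p = 0.0158, and 0.0578 without WT M2 replicate 2). Lgals3, the gene of Mac2, had 46.6, 47.8, 58.4 and 52.4 CPM in M1 and 81.1, 95.4, 84.5 and 46.9 CPM in M2 (-0.59 ± 0.27, adjusted p = 0.0677, and 0.0138 without WT M2 replicate 4). Under total-count scaling edgeR gave Itgam 0.21 (adjusted p = 0.483) and Lgals3 -1.15 (adjusted p = 0.00124). The calls of Itgam and Lgals3 therefore depend on the scaling as well. Ltb4r2 had 0 counts in all 8 libraries, and its relative Ltb4r1 had 2 counts in 1 M2 library, so neither leukotriene receptor could be compared from these counts.

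The 5 genes with the highest totals all lay opposite another gene. AV051173 (chr4:116684962-116686022) overlaps exons of Prdx1 by 279 bases. It took 14.6% to 15.3% of all counts in M1 libraries and 1.21% to 3.41% in M2 libraries, with 202148, 194683, 191082 and 199209 CPM in M1 and 29893, 30437, 10501 and 23714 CPM in M2 (3.06 ± 0.22). M2 replicate 3 was the lowest, and Prdx1 itself, given above, had a fold change of similar size at a far lower count. 3110062M04Rik opposite Tmem140 took 3.39% to 3.83% in M1 and 0.406% to 0.724% in M2 and was higher in M1 (3.34 ± 0.13), whereas Tmem140 was lower (-1.96 ± 0.22). Tmem132a opposite Slc15a3 took 1.59% to 2.02% in M1 and 1.65% to 2.08% in M2 (0.56 ± 0.09, which turned to -0.01 under total-count scaling). Zmynd15 opposite Cxcl16, which ranked lower, took 1.73% to 1.91% in M1 and 0.325% to 0.440% in M2 (2.89 ± 0.10). Gm15441, opposite Txnip, had 21262, 18502, 20828 and 19097 CPM in M1 and 25028, 25662, 35297 and 27754 CPM in M2 (-0.51 ± 0.10), while Txnip, a regulator of glucose uptake, had only 23 counts in M1 and 29 in M2.

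Mir6381, a microRNA gene at chr3:142623860-142623946 on the minus strand, held 5.03% to 5.48% of counts in M1 and 0.0863% to 0.148% in M2. It had 74599.9, 69499, 70284 and 65575 CPM in M1 and 1336, 1199.9, 748 and 950.3 CPM in M2 (6.05 ± 0.16), and Gbp2, on whose exon at chr3:142623670-142623883 it lies by 24 bases, had 318, 371, 279 and 312 CPM in M1 and 3.45, 4.06, 3.19 and 0 CPM in M2 (6.75 ± 0.31). Libraries made from polyadenylated RNA do not capture mature microRNAs, so these counts are of reads over the gene and not of the microRNA, whose sequence in RefSeq is printed with its seed, bases 2 to 8, in capitals to show where it lies.
mmu-miR-6381: cAGGAUGCuggugacaugagu
These 21 bases, at chr3:142623925-142623945, begin 41 bases past the end of that exon, so that no base of the mature microRNA overlaps it.

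Of the 12 largest decreases in M1 among genes with a mean of at least 50 counts, 10 had an overlapping partner, against 1453 of the 2129 genes tested, and Prune2 and Cd163 had none. Exosc9 (chr3:36552606-36565727), a subunit of the RNA exosome, overlaps Ccna2 (chr3:36564865-36572150), the cyclin of DNA replication. Exosc9 had 1, 0, 1 and 0 counts in M1 and 920, 554, 885 and 752 in M2, lower in M1 by a ratio of 1320-fold (95% counting interval 364 to 10900). Ccna2 had 555, 716, 561 and 736 CPM in M1 and 894, 822, 695 and 940.2 CPM in M2 (-0.38 ± 0.13, adjusted p = 0.0197, and 0.0969 and 0.101 without WT M1 replicates 1 and 3), so that the changes of the 2 symbols differed widely in size. Tbc1d17, which regulates Rab proteins, overlaps Il4i1, an amino acid oxidase named for its induction by IL-4. Tbc1d17 had 31.8, 22.996, 40.6 and 47.6 CPM in M1, 1130.4, 1281, 928 and 1169 CPM in M2 and 7.85, 5.44, 6.06 and 19.4 CPM in M0 (-5.00 ± 0.18), and Il4i1 had 9 counts in M1 and 35 in M2, too few to test. Mast1 opposite the lysosomal nuclease Dnase2a had 69.9, 74.3, 109 and 114 CPM in M1 and 1945, 1811, 2078 and 1749.8 CPM in M2 (-4.38 ± 0.16). Cdc23 opposite the mitotic kinesin Kif20a (-5.69 ± 0.24), Lcorl opposite the condensin gene Ncapg (-4.56 ± 0.31) and Paqr4 opposite the mitotic kinase Pkmyt1 (-4.24 ± 0.27) were lower in M1, where Kif20a had -0.67 ± 0.11, Ncapg -0.30 ± 0.17, which did not pass, and Pkmyt1 -2.10 ± 0.16. The remaining 4 of the 12 were 9130019P16Rik opposite Chn2 (-7.55 ± 0.24), the ubiquitin ligase gene Hectd2 opposite Hectd2os (-6.19 ± 0.45), the DNA glycosylase gene Mbd4 opposite Gm44206 (-5.28 ± 0.28) and Dnajb13 opposite Ucp2 (-4.83 ± 0.31). Hectd2 had 4.24, 5.31, 7.62 and 0 CPM in M1, 476, 296, 169 and 399.7 CPM in M2 and 6.28, 0, 3.03 and 36.8 CPM in M0.

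Over the whole table, 367 pairs of overlapping genes on opposite strands had both genes tested. In 150 pairs both were called, 96 in the same direction and 54 in opposite directions, and the fold changes within a pair correlated with Pearson's r = 0.40 over the 367 pairs, which share the same libraries. Overlapping genes were called in 61.7% of 1453 cases, 423 higher in M1 and 473 lower, with a median of -0.04, and genes with no overlap in 59.0% of 659 cases, 239 higher and 150 lower, with a median of 0.24.

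**Figure D4:**
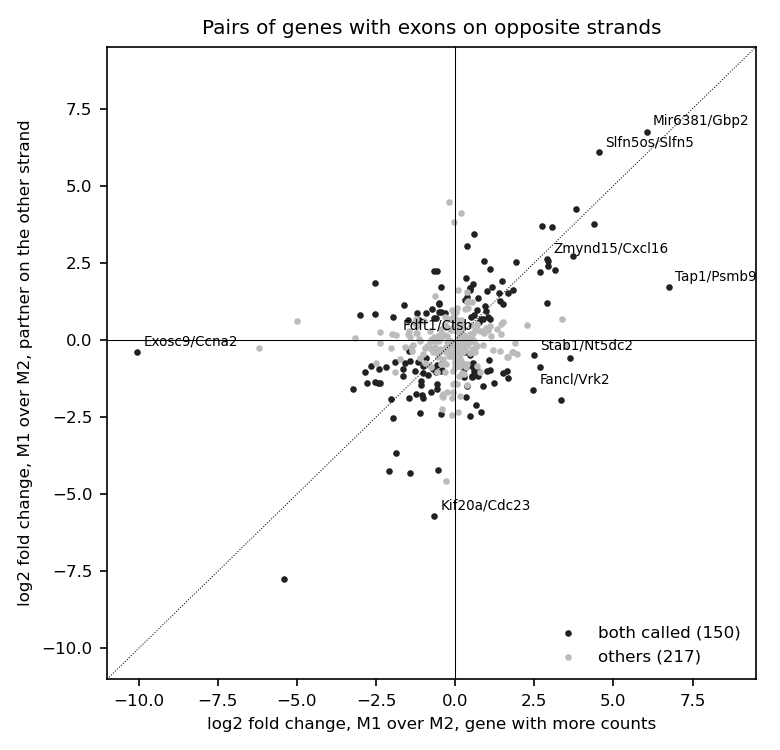
Each point is 1 of 367 pairs of genes with overlapping exons on opposite strands, by the log2 fold change of M1 over M2 of the gene with more counts (horizontal) and of its partner (vertical), in black where both were called. The dotted line marks equal changes, with Mir6381 and Gbp2 near it and Exosc9 and Ccna2 far from it.

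Genes that lie opposite a member of a gene list were counted separately, a choice made after the values were seen. All 8 genes opposite a ribosomal protein gene were lower in M1, with a median of -1.56, and they include Fam69a opposite Rpl5 (-2.65 ± 0.15), Cand2 opposite Rpl32 (-2.06) and Tbc1d8 opposite Rpl31 (-2.02 ± 0.18). Of 6 genes opposite a lysosomal gene, 2 of which share Ctsa as partner, 4 were lower and 0 higher, among them Fdft1 opposite the cathepsin gene Ctsb, with 4789.8, 5245, 4445 and 4659.9 CPM in M1 and 15426, 15371, 20939 and 17981 CPM in M2. Ctsb itself did not pass the test (0.15). Of 5 genes opposite a cytokine or receptor gene 4 were higher in M1, with a median of 3.49. They were Gm14023 opposite Il1a (4.16), Il1bos opposite Il1b (3.50), Apobr opposite Il27 and Cln3 (3.03) and Numa1 opposite Il18bp (3.49), and Hmgxb3 opposite Csf1r, the M-CSF receptor gene, was lower (-2.04). Of 3 genes opposite an IL-4 marker, Tbc1d17 and Atf5 opposite Il4i1 and 0610040F04Rik opposite Bhlhe40, all were lower, and of 7 opposite an oxidative phosphorylation gene 3 were lower and 0 higher. Among all 1453 overlapping genes the split was 423 higher and 473 lower.

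The same contrast was large in Ltb4r2-/- macrophages, which share no library with the WT comparison. There 1253 of 2125 genes (59.0%) were called, 616 higher in M1 and 637 lower. Of the 1296 WT calls 1211 were tested in Ltb4r2-/- cells, 1199 had the same direction and 1046 were called with it, which is 80.7% of the WT calls and 83.5% of the Ltb4r2-/- calls, while 0 were called in the opposite direction. Fold changes of the 1961 genes tested in both had a Pearson's r of 0.964 across genes, which are not independent replicates, and a median absolute difference of 0.25 on the log2 scale. Cxcl9 had 707, 747, 618 and 819 CPM in Ltb4r2-/- M1 and 0 counts in Ltb4r2-/- M2, and Cd163 7.22, 19.996, 6.86 and 8.36 CPM in Ltb4r2-/- M1 and 3007, 1945, 1719 and 1896 CPM in Ltb4r2-/- M2. The test of the difference between genotypes (the interaction, on 16 libraries and 2680 genes) called 0 genes (0%) by edgeR and 0 by DESeq2, with 116 genes (4.33%) at an unadjusted p under 0.05 by edgeR and 109 by DESeq2. The smallest p was that of Pstpip2, with a difference of -3.30 on the log2 scale, WT minus Ltb4r2-/- (adjusted p = 0.764). By edgeR the SE of this difference was 15.2 for Cxcl9, which had 0 counts in M2, and 0.55 for Cd163. With such SEs, 0 calls do not show that the genotypes are alike.

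**Figure D5:**
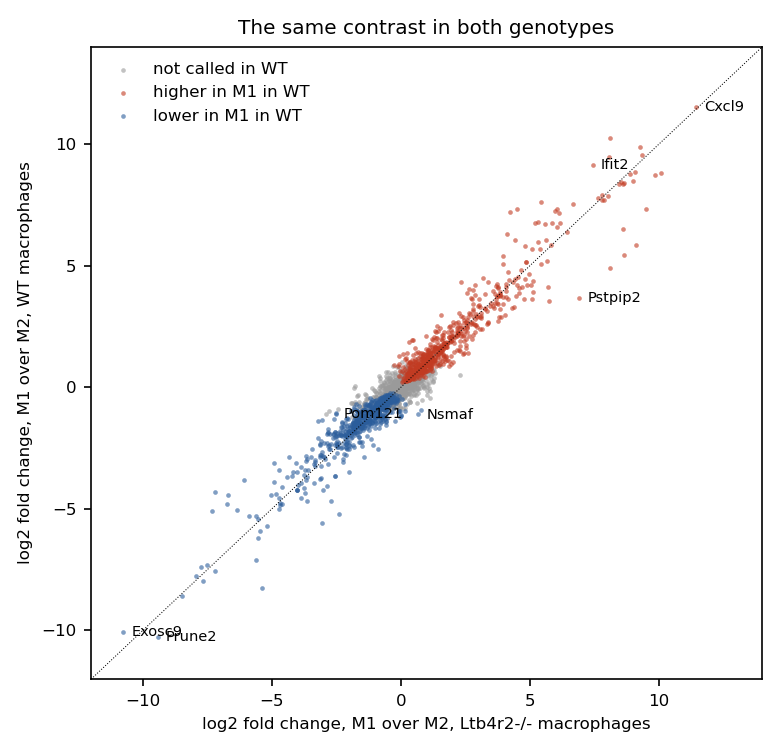
Each point is 1 of 1961 genes tested in both genotypes, by its log2 fold change of M1 over M2 in Ltb4r2-/- (horizontal) and WT (vertical) macrophages from separate edgeR fits, coloured by its call in WT. The dotted line marks equal changes, along which the points lie (Pearson's r = 0.964), and the 3 genes named off the line, Pstpip2, Nsmaf and Pom121, did not pass the test of the difference after adjustment.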

How the data were processed

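RNA from BMDMs was made into strand-specific polyadenylated RNA libraries and sequenced by the authors. The authors deposited raw counts per gene, for which reads were processed in Rosalind, trimmed with cutadapt, aligned to mm10 with STAR and counted with HTSeq. Tool versions are not given in the sources used here. Deposited normalized values were not used.

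Genes were filtered with filterByExpr (minimum count 10, minimum total 15), scaled by TMM and tested with edgeR 4.0.16 (quasi-likelihood, R 4.3.3) on the 8 WT M1 and M2 libraries, with Benjamini-Hochberg adjustment at 0.05. The SE is the absolute log2 fold change over the square root of F. CPM are on the TMM scale of all 24 libraries. Libraries numbered alike deviated together (r of 0.314 to 0.448 in 4 of 4 pairs), as did some numbered differently (-0.424 to 0.394 in 12 pairs), with replicates 1 and 3 on one side and 2 and 4 on the other, and Tsix had 1191 to 2649 counts in replicates 1 and 3 and 0 in replicates 2 and 4 of both states, so the number was also fitted as a block. Positions came from GENCODE M21 (GRCm38) for 24000 genes and RefSeq for 468, and 26 symbols stored as dates were restored. Intervals and floors cover counting error only, and the replicates are those of the labels. The script was tested on simulated data with known changes, where recovery of small changes was partial.

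Among called genes averaging 50 counts or more the 12 largest changes each way were named. The rule also covered the 5 highest totals, up to 4 members of each list by p, the 3 smallest p of the interaction, genes the study used, and partners, and not every gene it covers is given. Other list members, and genes opposite list members, were named after their values were seen. Some members of the lists are not reported here. The gene lists and named-gene rules were chosen with earlier results of these data known. Alternatives were other scalings, filters, DESeq2 1.42.0, other sets of libraries, the block, each library left out, and genes with no overlap.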

Additional observations from a re-analysis of the deposited data

Results flagged for a closer look

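In 242 groups of 4 WT libraries of the named genes, 1 library stood far from the other 3 (by the share of the group's range taken by its gap) in 17, where chance gives about 1 in 20, or 12.1. The explanation was not tested for any of them. In WT M1, replicate 1 had 485 CPM of Npc2 (267 to 279 in the others), 3180 of Parp9 (2780 to 2800), 78.3 of Tbc1d8 (133 to 142) and 112 of Tnfsf9 (61.9 to 68.6). Replicate 2 of M1 had 79.6 CPM of Tnfrsf1b (148 to 152) and 1590 of Unc5a (1290 to 1340). Replicate 3 of M1 had 61.0 CPM of Gapdh (121 to 133), 122 of Hif1a (79.6 to 85.8) and 107 of Tmem140 (50.8 to 59.6). Replicate 4 of M1 had 69.1 CPM of Hk3 (36.0 to 38.1) and 143 of Mars (99.1 to 104). In WT M2, replicate 1 had 437 CPM of Rpl5 (410 to 414 in the others), and replicate 2 had 62.9 of Il6ra (100 to 107) and 319 of Sqle (354 to 361). Replicate 3 of M2, which stood apart by the chi-square of raw counts but not by log2 distance, had 20.7 CPM of Clec9a (50.05 to 55.1). It had 531 CPM of Fancl (671 to 688) and 171 of Gabpa (108 to 118). Of these genes Fancl, Gabpa, Gapdh, Hif1a, Hk3, Il6ra, Mars, Parp9, Rpl5, Tbc1d8, Tmem140, Tnfsf9 and Unc5a have an exon opposite another gene. No single library held more than 4 of the 17.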

How the results depend on the processing

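The filter on low counts left 2129 of 24557 genes for the comparison. Genes called numbered 1306 to 1343 with any 1 library left out (654 to 703 higher in M1 and 632 to 664 lower), and 113 to 117 list members were then higher and 46 to 51 lower. The count was 1294 with DESeq2 size factors, 1271 with DESeq2, 1756 with no filter (11701 genes tested), 1600 with 24 libraries in 1 fit and 1436 with the 12 WT libraries. Requiring a mean of 50 counts tested 936 genes and called 666, 330 higher and 336 lower, and keeping only genes with no overlapping partner tested 659 and called 389, 239 higher and 150 lower, with 66 list members higher and 22 lower. Fewer genes were tested in both. Total-count scaling called 403 higher and 1036 lower. With the replicate block 1267 genes were called, 650 higher and 617 lower, and of the named genes it changed the call of Nsun5 alone (0.28). In Ltb4r2-/- cells 1265 to 1323 genes were called with each library left out, and the interaction called 0 with each of 16 left out. Under total-count scaling Cfb (-0.52), Tmem132a (-0.01), Gabpa (-0.46) and Trpt1 (-0.26) changed sign with a call in at least 1 of the fits, as did the list members Irf5 (-0.30) and Trp53bp1 (-0.26), and C1qc (-0.41), Ctsb (-0.42), Pitrm1 (-0.32) and Nsun5 (-0.28) changed sign with no call in either. Of 2401 values of named genes under the alternatives, 2358 kept their call or stayed without one, 13 of them with the other sign in genes not called in either fit. Leaving out 1 library cost the calls of Itgam, Ccna2, Lyz2, Hsp90b1, Trpt1, Ndufv3 and Nsmaf in at least 1 case and gave one to Slc7a2, Lgals3, Rffl and Nsun5. The cause of these shifts was not tested. Leaving out libraries for the lists, Ltb4r2-/- cells and the interaction was chosen after seeing the data.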

Other observations

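A few genes outside the comparisons above also separated the states. C3, the central protein of complement, had 413, 426, 396 and 453 CPM in M1 and 27.6, 73.1, 51.02 and 24.5 CPM in M2 (3.26 ± 0.24, SE, adjusted p = 4.22e-09 by edgeR), and Thbs1, a matricellular glycoprotein opposite Gm29233, had 186, 403, 264 and 374 CPM in M1 and 0, 4.06, 7.97 and 8.16 CPM in M2 (5.87 ± 0.41). C1qc did not pass the test (0.15 ± 0.30). Of 7 cytokine and cytokine receptor genes tested 3 were higher in M1 and Il6ra was lower, with a median of 0.78, against 31.3% higher and 29.5% lower over all genes, and 2 were lower under total-count scaling. Il2rg, the receptor chain shared by IL-2 and IL-4, had 63.5, 40.7, 53.3 and 40.5 CPM in M1 and 0, 4.06, 6.38 and 0 CPM in M2 (4.07 ± 0.59), and Il6ra, opposite Gm42809, had 38.1, 38.9, 38.1 and 35.7 CPM in M1 and 107, 62.9, 100.5 and 102 CPM in M2 (-1.30 ± 0.26). The groups did not overlap in C3, Thbs1, Il2rg or Il6ra, nor did they in 55.8% of all genes tested.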
